A study of Rattus norvegicus with 421 samples.

Results

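Hepcidin and the proteins that take up, carry and store iron were followed in the liver of the rat through 4 genes, Hamp, Tfrc, Tf and Fth1. The members were chosen by name, and every probe set listed for them on the Affymetrix RAE230A array was taken, which gave 5 of the 15866 probe sets and 4 of the 10411 genes named on the array. Hamp had 1 probe set, Tfrc had 2, and Tf and Fth1 had 1 each. The probe set of Tf is also listed for Srprb, its neighbour on chromosome 8, and is called the Srprb/Tf probe set here, because its signal cannot be credited to 1 of these genes. The probe set of Fth1 is also listed for the pseudogene Fth1-ps5, so transcripts of both may add to its signal.

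Male Wistar Hanover rats, 8 to 10 weeks old, received 1 of 30 compounds or the vehicle alone by gavage for up to 14 days, and 1 liver was hybridized to each array. The acetaminophen and saline groups were labelled in hours (6, 12, 24 and 48), and all other groups in days. The 421 arrays comprised 293 of treated animals in 98 groups and 128 of vehicle animals in 38 groups. The vehicles were corn oil, carboxymethylcellulose and 0.9% physiological saline, and each treated group was compared with the vehicle group that its label names. Of the 98 treated groups, 97 had 3 arrays and 1 had 2, and the vehicle groups had 3, 4 or 6. Per the study's methods, the treated animals on the arrays were chosen for liver changes seen by histopathology, so their spread is that between chosen animals. The groups named below are ibuprofen at 94 mg/kg (an anti-inflammatory drug), Wy-14643 at 60 (a peroxisome proliferator), cyproterone acetate at 100 (a steroid), ethionine at 200 (an antagonist of methionine), acetaminophen at 4250 (an analgesic), acetamide at 3000, piperonyl-butoxide at 1200, thioacetamid at 19.2, methapyrilene HCl at 60, C.I Direct Black at 146, dehydroepiandrosterone at 600, and the drugs cefuroxime at 250, clonidine at 0.1, nifedipine at 3, prazosin at 1 and propranolol at 40 mg/kg. Wy-14643, acetamide, thioacetamid, methapyrilene, dehydroepiandrosterone, ethionine, piperonyl-butoxide, ibuprofen and the other drugs were compared with carboxymethylcellulose, cyproterone acetate and C.I Direct Black with corn oil, and acetaminophen with saline. The markers of hepatocytes had a list mean between 13.1 and 13.8 on every array. On 7 arrays, among them 2 vehicle arrays of series 1B, the mean of the muscle or pancreas genes stood more than 1.5 above the median of all arrays, and none of the 7 belonged to a group in which Hamp or Tfrc was called.

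Hepcidin is a peptide hormone that hepatocytes secrete. It binds ferroportin (Slc40a1), the exporter through which enterocytes, macrophages and hepatocytes release iron, and thereby lowers the iron in plasma. Its transcription is raised by iron through the bone morphogenetic protein (BMP) and SMAD route and by interleukin 6 through STAT3. Transferrin (Tf) carries iron in plasma, transferrin receptor 1 (Tfrc) takes it into cells, and ferritin, of which Fth1 encodes the heavy chain, stores it. When a cell is short of iron, the iron regulatory proteins, encoded by Aco1 and Ireb2, stabilise the Tfrc message and block translation of ferritin, a step that arrays of messenger RNA do not see.

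On the rat genome GRCr8, Hamp lies at chr1:95298332-95300271, Tfrc at chr11:81668478-81690318, Tf at chr8:112668667-112695376 and Fth1 at chr1:216052037-216054325. The 250 bases before the RefSeq start of Hamp (chr1:95300272-95300521, minus strand) and of Tfrc (chr11:81690319-81690568, minus strand) are shown because these are the members whose signal was called different in treated livers. Capitals mark matches to GGCGCC, the core of the BMP responsive element, and to the STAT motif TTCNNNGAA.

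Hamp: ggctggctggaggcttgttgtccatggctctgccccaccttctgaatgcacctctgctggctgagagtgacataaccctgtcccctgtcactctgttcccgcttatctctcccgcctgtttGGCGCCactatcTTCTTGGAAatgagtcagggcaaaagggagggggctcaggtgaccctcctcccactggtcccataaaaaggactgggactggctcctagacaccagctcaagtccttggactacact
Tfrc: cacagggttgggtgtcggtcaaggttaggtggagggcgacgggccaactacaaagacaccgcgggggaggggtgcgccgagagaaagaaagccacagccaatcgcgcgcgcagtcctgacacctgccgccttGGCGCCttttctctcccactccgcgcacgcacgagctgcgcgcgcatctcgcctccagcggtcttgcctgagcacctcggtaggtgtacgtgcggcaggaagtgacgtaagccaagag

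In the window of Hamp, GGCGCC stood 129 to 124 and TTCTTGGAA 117 to 109 bases before the start, on the strand of the gene. In the window of Tfrc, GGCGCC stood 118 to 113 bases before the start. The search covered both strands and also the antioxidant motif TGACNNNGC and the E-box CACGTG, which these windows and that of Tf did not hold. Of the 33469 promoter windows of the same length, 8.69% held GGCGCC, 7.67% TTCNNNGAA, 10.1% TGACNNNGC and 5.59% CACGTG. A match describes the letters of the window and is not evidence of binding in these livers.

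In vehicle-treated rats, Hamp was abundant in most livers, and a few stood far below the others. All levels are log2 values made with the robust multi-chip average (RMA). Over the 128 vehicle arrays, the lowest level of Hamp was 9.75, the median 13.02 and the highest 13.81. In all, 96 arrays lay within 0.5 of the median, 7 lay more than 1 below it and 0 lay more than 1 above it. The standard deviation (SD) of Hamp within vehicle groups was 0.553, larger than that of 99.6% of the probe sets. The means of the 38 groups ran from 11.74 to 13.31, and the F test of limma over these groups gave an adjusted p of 0.14. The same test passed the threshold for 48% of the probe sets.

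**Figure D1:**
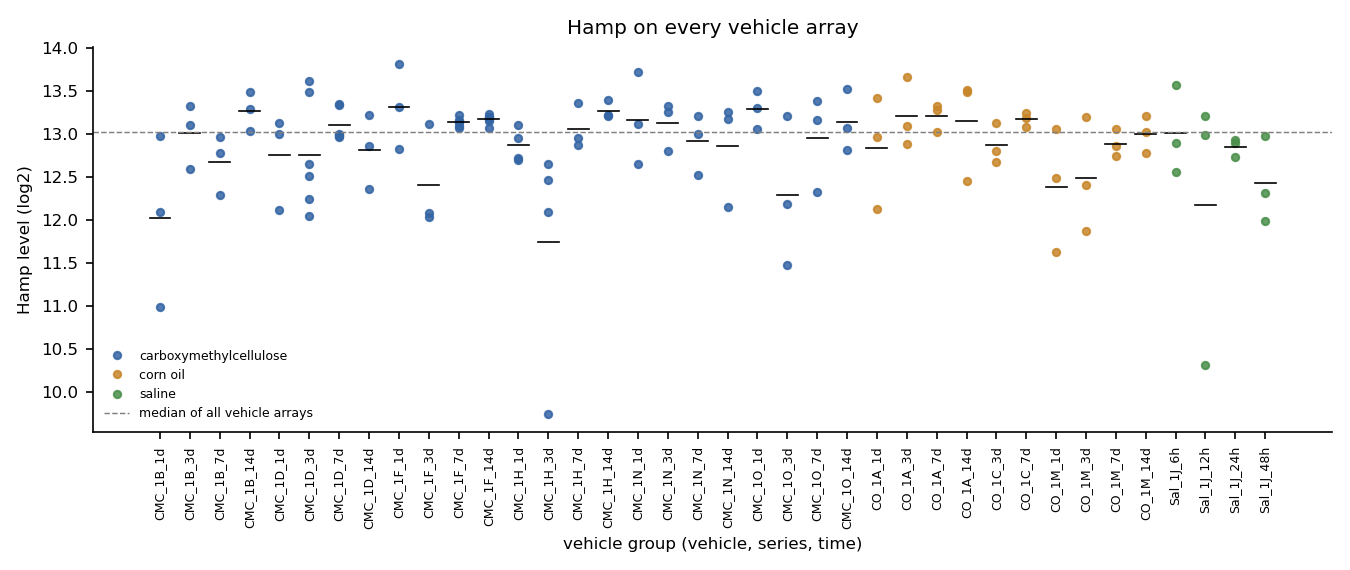
Level of Hamp (log2, RMA) on each of the 128 vehicle arrays, by vehicle group, with 1 point per animal. Most animals lie near the median of 13.02, and 7 lie more than 1 below it, the lowest at 9.75.

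The lowest level of Hamp, 9.75, was that of replicate 3 of the day 3 carboxymethylcellulose group of series 1H. Its Tfrc level was 11.77, the highest of its group, in which the other animals had 10.79 to 11.38. In the 12 hour saline group, replicate 3 had a Hamp level of 10.31 and a Tfrc level of 11.50, against 11.33 and 11.52 in the other animals. In the day 1 group of series 1B, the low animal had 10.99 for Hamp and 11.05 for Tfrc, against 10.81 and 10.89. A low level of Hamp did not always go with a high level of Tfrc, since replicate 2 of the day 3 group of series 1O had 11.48 for Hamp and 9.14 for Tfrc, where the other animals had 10.12 and 11.17.

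Tfrc ranged from 8.92 to 11.77 on the vehicle arrays, with a median of 10.66 and an SD within groups of 0.385. Its group means ran from 10.09 in the day 14 group of series 1O to 11.45 in the 12 hour saline group, and the F test gave an adjusted p of 0.0031. The Srprb/Tf probe set spanned 14.64 to 14.91 with an SD within groups of 0.0402. Fth1 spanned 13.45 to 13.80 with an SD of 0.0541, and its vehicle groups differed with an adjusted p of 0.00082. The vehicle levels of the Srprb/Tf and Fth1 probe sets were thus far more even than those of Hamp and Tfrc.

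Within saline, where animals were killed at 6, 12, 24 and 48 hours, Tfrc was higher at 12 than at 6 hours by 1.03 ± 0.32 (standard error, SE, n = 3 each, limma adjusted p = 0.049), where 1.08% of the probe sets were called. The F test of Tfrc over the 3 later times against 6 hours had an adjusted p of 0.14, with 6.56% of the probe sets passing. Hamp differed by -0.84 ± 0.49 between the same times, with a limma adjusted p of 0.52. Between day 1 and day 14, vehicle levels of Hamp differed by 0.26 ± 0.17 with a limma adjusted p of 0.55. The 3 series in corn oil had a mean Hamp level 0.21 above that of the 6 in carboxymethylcellulose, which an exact two-sided permutation test over the 84 arrangements of the series did not separate (p = 0.25, the smallest p that it allows being 0.0119).

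Over the 98 treated groups, Hamp rose in 4 groups of 2 compounds and fell in 3 groups of 3 compounds. A call required a Benjamini-Hochberg adjusted p below 0.05 over all probe sets of the comparison and a difference of 1.5-fold or more. The groups called were 4.08% higher and 3.06% lower for Hamp, against 1.02% and 0.731% over all probe sets and comparisons, and 1.75% in either direction. In 17 groups the unadjusted p of Hamp was below 0.05. Without the 7 arrays with muscle or pancreas transcripts, a fit chosen after seeing the data, the counts were again 4 higher and 3 lower for Hamp and were 6 and 2 for Tfrc. The changes of Hamp had a median of 0.12 and ran from -3.78 to 1.90, and 58 of the 98 were above 0. Because whole liver was measured, fewer cells of a type and less RNA per cell cannot be told apart.

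**Figure D2:**
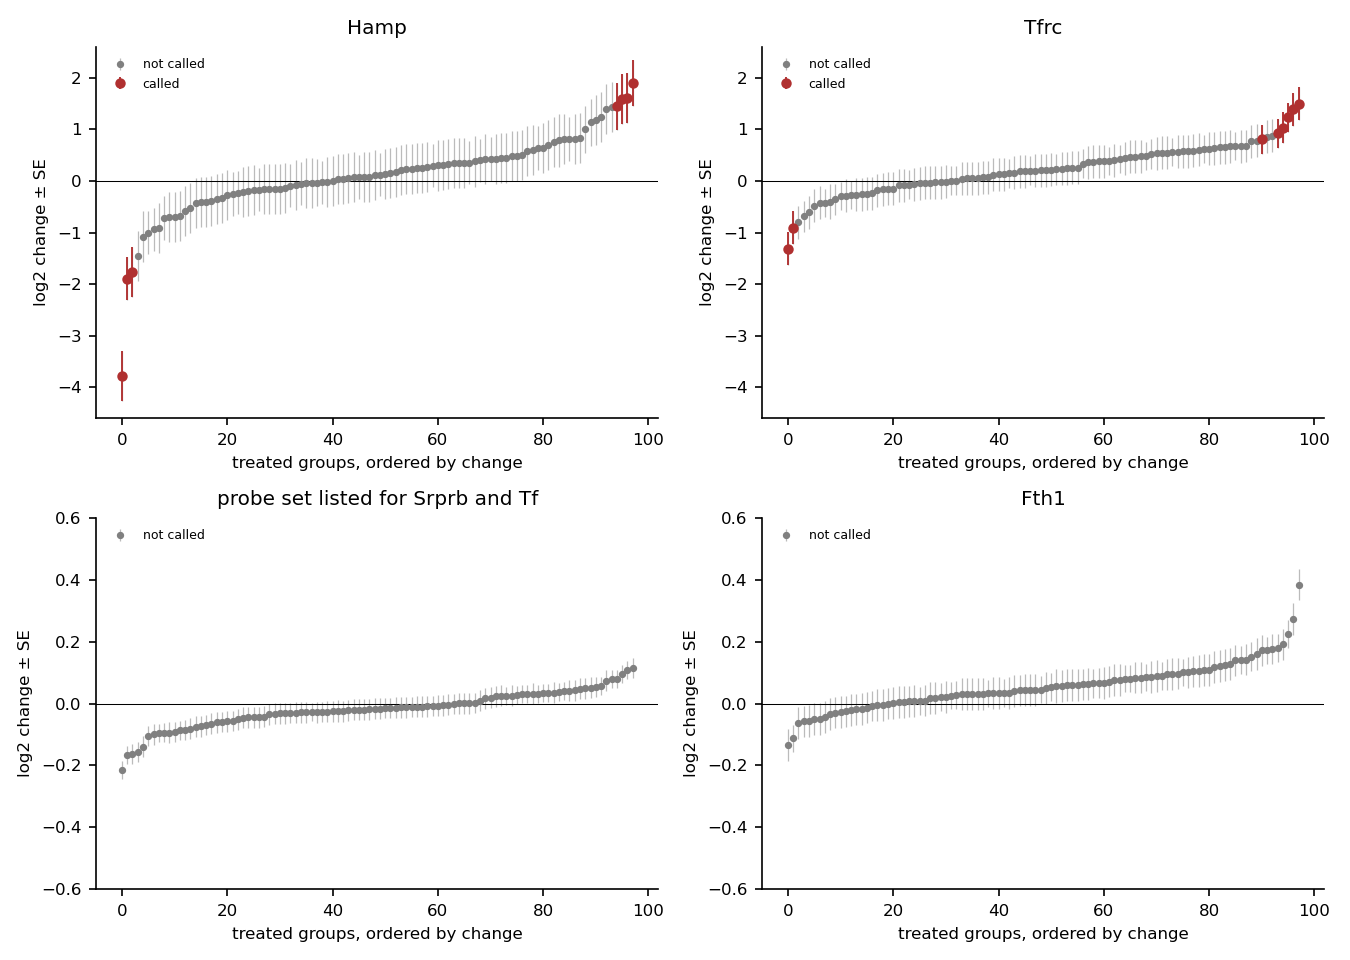
Change (log2, treated minus vehicle mean) of Hamp, Tfrc, the Srprb/Tf probe set and Fth1 in each of the 98 treated groups, ordered by the change within each panel, with called groups in red, bars for the SE of the fit and a narrower vertical scale in the lower panels. Changes of Hamp run from -3.78 to 1.90 and of Tfrc from -1.31 to 1.49, whereas those of the Srprb/Tf and Fth1 probe sets stay between -0.21 and 0.38.

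The largest change of Hamp in the series was a fall after 14 days of ibuprofen, in 2 of 3 animals. Hamp levels were 7.63, 7.87 and 12.56 in the treated animals and 13.52, 13.07 and 12.81 in the vehicle animals. Animals 1 and 2 lay below each of the 128 vehicle arrays, and animal 3 lay just below its own vehicle group. The mean fell by 3.78 ± 0.49, or 13.7-fold (limma adjusted p = 2.00e-09), with an SD of 2.78 among the treated animals. In this comparison 0.151% of all probe sets were called, 0.0189% lower and 0.132% higher. The change stayed called when each of its 6 arrays was left out in turn, from -5.38 to -2.92, but not when the ibuprofen and vehicle groups were fitted alone (adjusted p = 0.27).

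The same animals separated in Tfrc, the receptor for transferrin. Tfrc levels were 11.91, 12.78 and 9.77 after ibuprofen and 9.77, 10.30 and 10.21 in the vehicle group. The animals with little Hamp had high Tfrc, and the animal with a near-normal level of Hamp had a Tfrc level as low as the lowest of its vehicle group. On the other probe set of Tfrc the levels were 9.19, 9.87 and 6.59 against 6.55, 6.88 and 6.69, which gave the same order of animals. The mean of Tfrc rose by 1.39 ± 0.32 (limma adjusted p = 0.0167). That call was lost without ibuprofen animal 1 or 2 or without vehicle animal 1 or 3, with values from 0.75 to 2.25 over the 6 leave-outs, and also when both groups were fitted alone (adjusted p = 0.53).

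The clock gene Per2, which was not called, had the order of Tfrc in these animals, with 7.82, 8.42 and 7.15 against 7.63 to 7.80. A2m, an acute phase protein of the rat, had levels of 9.10, 9.68 and 9.17 in the 3 ibuprofen animals against 7.25 to 7.79 in the vehicle animals, and thus did not set animal 3 apart. The mean over 13 acute phase genes was 12.65 to 12.78 against 12.29 to 12.43, that over 5 red cell genes 9.99 to 10.49 against 9.86 to 9.99, and that over 8 macrophage genes 9.91 to 10.22 against 9.22 to 9.61, with 2 of the 8 called higher. Of the 43 other iron genes measured, limma called 0, and 8 had an unadjusted p below 0.05. Fth1 was 13.78, 13.67 and 13.58 against 13.62 to 13.72 and was not called. The part of the acute phase, red cell and macrophage signals in the change of Hamp was not tested.

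Earlier in the course of ibuprofen, single animals also had low Hamp. On day 7, the levels were 13.29, 11.52 and 9.72 against 13.38, 12.32 and 13.16, a difference of -1.45 ± 0.49 that did not pass (limma adjusted p = 0.23). The animal at 9.72 also had the highest Tfrc of its group, 11.13 against 10.13 and 10.48. The difference in Hamp was -0.91 on day 1 and -0.16 on day 3. Between day 14 and day 1 the change itself differed by -2.87 ± 0.69, which was not called after adjustment (limma adjusted p = 0.15). Over the 30 compounds, limma called the 4 members in 0 of 120 such contrasts of last against first time point, with 13 at an unadjusted p below 0.05 and with 1.06% of all probe sets called.

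**Figure D3:**
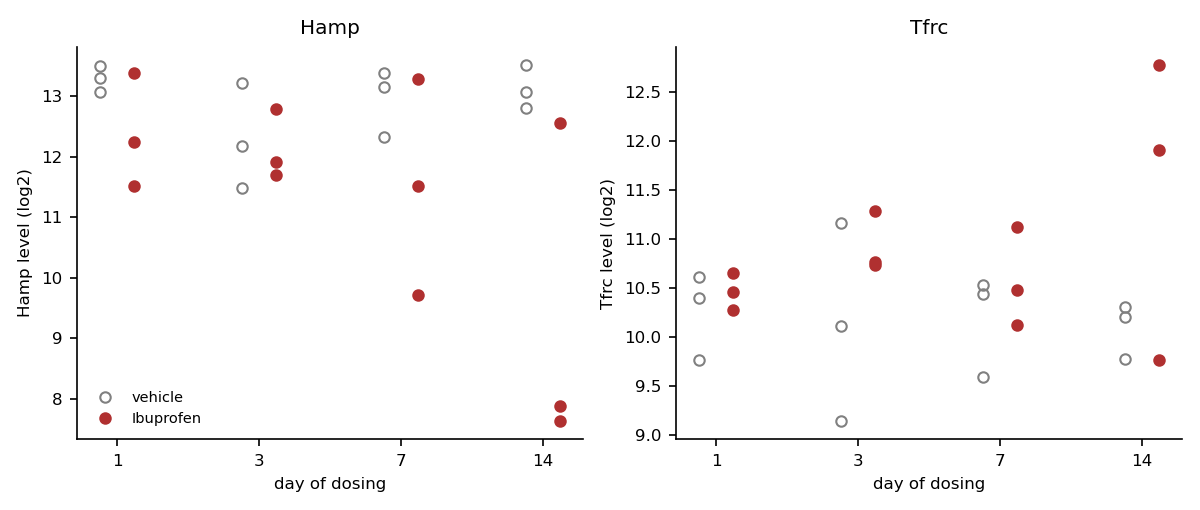
Levels of Hamp and Tfrc (log2, RMA) in single animals given ibuprofen and in their vehicle animals on days 1, 3, 7 and 14, with 1 point per animal. On day 14 animals 1 and 2 have Hamp levels of 7.63 and 7.87 and Tfrc levels of 11.91 and 12.78, and animal 3 lies near the vehicle animals.

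For the 5 other drugs compared with vehicle series 1O (cefuroxime, clonidine, nifedipine, prazosin and propranolol), limma called Hamp in 0 of 20 groups, with 2 at an unadjusted p below 0.05. These were on day 3, with differences of 1.44 ± 0.49 for cefuroxime and 1.25 ± 0.49 for nifedipine, neither of which passed (limma adjusted p = 1.00 and 0.089), and both were read against the vehicle group that holds the low animal at 11.48.

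After 3 days of Wy-14643, an agonist of the receptor PPAR alpha, Hamp was 8.81, 11.67 and 12.12 in the treated animals, and the 6 vehicle animals ran from 12.05 to 13.62. The groups overlapped by 1 animal, and the mean fell by 1.89 ± 0.42 (3.72-fold, limma adjusted p = 0.000175), where 3.84% of the probe sets were called. The call rested on animal 1, without which the difference was -0.87 with an adjusted p of 0.19. This animal also had the highest Tfrc of its group, 11.77 against 10.75 and 10.67, with 10.45 to 11.25 in the vehicle animals. Aco1, an iron regulatory protein, was called higher by 1.47 and Slc39a8, a metal importer, was called lower. Of the 5 red cell genes, 2 were called lower, with a list mean of 9.24 to 9.73 against 9.93 to 10.17, whose part in the change of Hamp was not tested.

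After 3 days of cyproterone acetate, all treated animals lay below all vehicle animals. The share of all probe sets separated in this way was not computed. Hamp was 11.38, 11.77 and 11.17 against 13.66, 12.88 and 13.09. The mean fell by 1.77 ± 0.49 (3.41-fold, limma adjusted p = 0.0065, with 2.82% of the probe sets called), and without vehicle animal 1 it was -1.55 with an adjusted p of 0.0587. On the other days the differences were 1.18 on day 1 (limma adjusted p = 0.090), -0.67 on day 7 and 0.34 on day 14, none of them called. Day 3 was not tested against another day. Tfrc was 11.18 to 11.67 against 10.31 to 10.86, a difference of 0.77 that did not pass (limma adjusted p = 0.11). Id3, a target of BMP signalling, was 9.0, 8.32 and 8.76 against 9.63 to 10.21 and fell by 1.17 on the log2 scale. In no other group in which Hamp was called did limma call Id3. Its differences were -0.19 with ibuprofen on day 14 and -0.51 with Wy-14643 on day 3. They were 0.40 and 0.36 on days 1 and 3 of ethionine, and -0.11 and 0.60 at 24 and 48 hours of acetaminophen. Of the 8 macrophage genes, 6 were called lower, with a list mean of 9.02 to 9.48 against 9.77 to 10.17, and the part of these cells in the change of Hamp was not tested.

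With ethionine, Hamp rose on days 1 and 3. On day 1 the levels were 14.15, 14.36 and 14.44 against 12.72, 13.11, 12.95 and 12.70. Each treated animal was above the highest of the 128 vehicle arrays, 13.81. The mean rose by 1.45 ± 0.45 (2.73-fold, limma adjusted p = 0.0074), where 8.96% of the probe sets were called. On day 3 the levels were 13.94, 13.73 and 13.26 against 12.46, 12.66, 9.75 and 12.10, an increase of 1.90 ± 0.45 (3.74-fold, limma adjusted p = 0.000196, with 12.9% called). The vehicle animal at 9.75 adds to this difference, which was 1.24 and still called without it. On days 7 and 14 the differences were -0.02 and 0.05.

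Beside the rise of Hamp on day 1 of ethionine, 7 of the 43 other iron genes rose and 3 fell, where 4.57% and 4.39% of the probe sets did. Id1 and Atoh8, both targets of BMP signalling, rose by 0.91 and 0.64, the ligand Bmp2 by 0.59 and Stat3 by 0.81. Ceruloplasmin (Cp), the plasma ferroxidase, fell by 0.99. On day 3, 7 rose and 2 fell, with Hmox1, the haem-degrading oxygenase, at 1.63, ferroportin (Slc40a1) at 0.76 and Cp at -1.43, where 7.91% and 4.98% of the probe sets were called. Of the 8 macrophage genes, 7 were called higher on day 3 (list mean 10.72 to 10.94 against 9.35 to 9.70), and their part in the change of Hamp was not tested. Tfrc differed by -0.69 on day 1 and was called on neither day.

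After acetaminophen, Hamp and Tfrc rose together at 24 hours. Hamp was 14.60, 14.22 and 14.50 against 12.73, 12.89 and 12.93 at 24 hours, and 14.37, 14.13 and 13.62 against 11.99, 12.98 and 12.31 at 48 hours. The groups did not overlap at either time, but the share of all probe sets without overlap was not computed. The increases were 1.59 ± 0.49 (3.01-fold, limma adjusted p = 0.00578, with 10.8% of the probe sets called) and 1.62 ± 0.49 (3.06-fold, limma adjusted p = 0.00422, with 10.0% called). At 6 and 12 hours the differences were 0.33 and 0.61, and neither passed.

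Tfrc at 24 hours was 12.20, 12.17 and 12.38 against 10.54, 11.12 and 10.61, an increase of 1.49 ± 0.32 (limma adjusted p = 3.88e-05) that stayed called when any of its 6 arrays was left out. At 12 hours the direction was the opposite, with 10.45, 9.50 and 10.46 against 11.33, 11.52 and 11.50, and Tfrc fell by 1.31 ± 0.32 (limma adjusted p = 0.0026, with 1.92% of the probe sets called). The vehicle group of that comparison is the 12 hour saline group, whose Tfrc was the highest of the vehicle groups. The call was lost without acetaminophen animal 2 (adjusted p = 0.16) and when both groups were fitted alone (adjusted p = 0.063). At 48 hours, when Hamp was called higher, Tfrc was 10.78, 12.14 and 11.74 against 11.38, 10.81 and 10.57 and was not called. Within this course, both genes were thus called higher at 24 hours only.

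Many other iron genes changed with acetaminophen. At 24 hours, 8 of the 43 rose and 3 fell, where 6.72% and 4.08% of the probe sets did. Hmox1 rose by 3.27, the haem transporter Slc48a1 by 1.40, Id1 by 1.33, Stat3 by 0.93 and the interleukin 6 receptor Il6r by 0.73, and Hfe, a regulator of hepcidin, fell by 0.61. At 48 hours 6 rose and 2 fell, where 6.01% and 4.03% did, among them Lcn2, a siderophore-binding protein, at 3.24, Id1 at 1.73 and Slc40a1 at 1.41. Smad6, Smad7 and Socs3 were called higher at neither time. Of the 5 red cell genes, 3 were called lower at 48 hours, with a list mean of 8.11 to 8.35 against 9.78 to 10.15. Their part in the changes of Hamp and Tfrc was not tested.

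**Figure D4:**
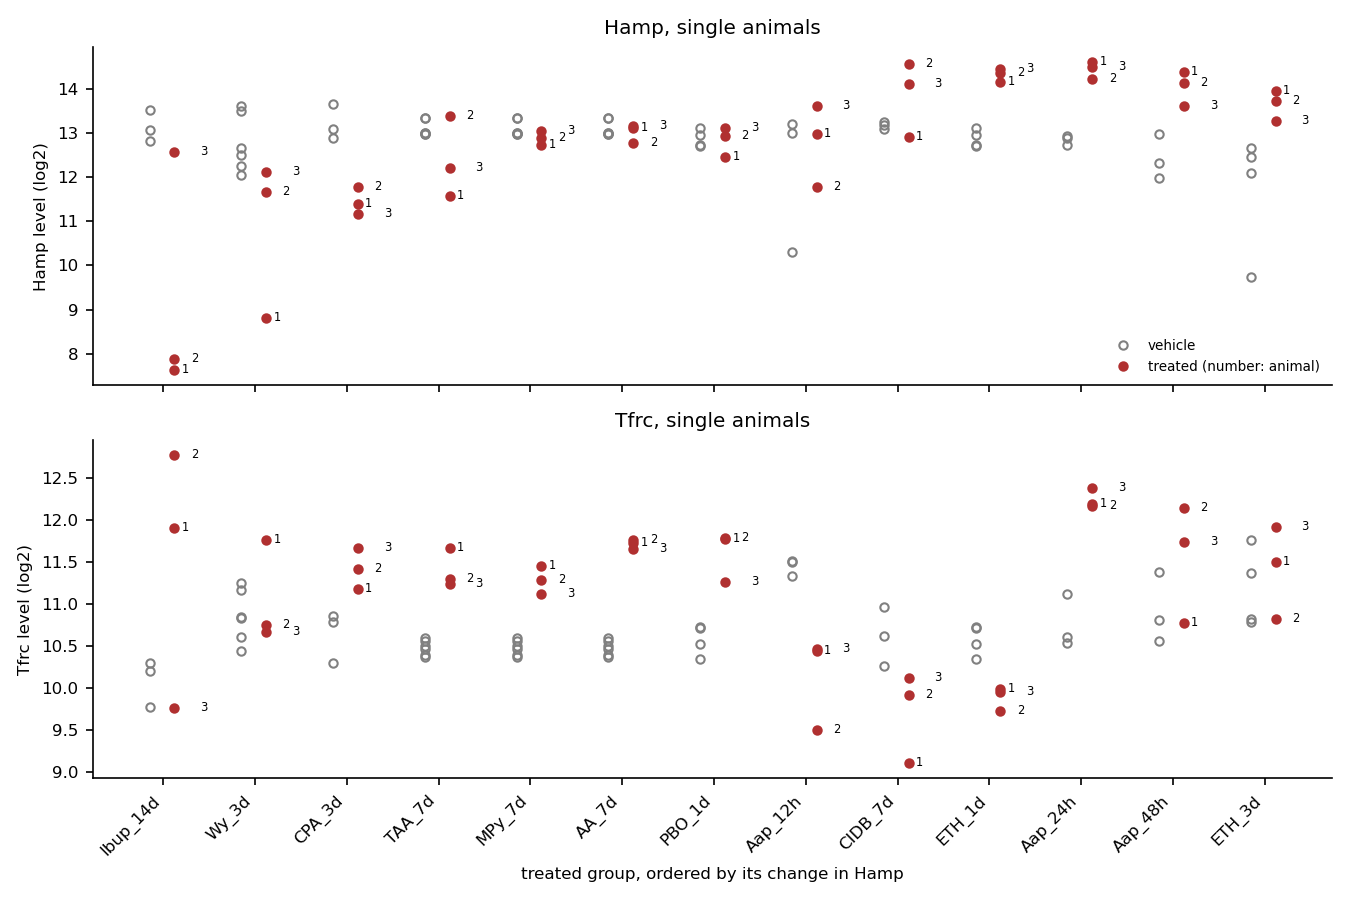
Levels of Hamp (upper panel) and Tfrc (lower panel), log2, in single animals of the 13 treated groups in which either was called and in their vehicle animals, ordered by the change in Hamp. Red points with animal numbers are treated and open circles are vehicle animals (Ibup, ibuprofen, Wy, Wy-14643, CPA, cyproterone acetate, TAA, thioacetamid, MPy, methapyrilene, AA, acetamide, PBO, piperonyl-butoxide, Aap, acetaminophen, CIDB, C.I Direct Black, ETH, ethionine, with d for days and h for hours). Ibuprofen animals 1 and 2 and Wy-14643 animal 1 combine low Hamp with high Tfrc, whereas at 24 hours of acetaminophen both genes are high.

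Over all groups, Tfrc rose in 6 (6.12%) and fell in 2 (2.04%) of the 98 comparisons, against the 1.02% and 0.731% over all probe sets. Its changes ran from -1.31 to 1.49 with a median of 0.21, and 24 had an unadjusted p below 0.05. The other probe set of Tfrc rose in 10 groups and fell in 1, and within groups the pair correlated with r = 0.92 over vehicle and 0.91 over treated arrays, as a description.

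Of the remaining increases, that after 7 days of acetamide was the most even, with Tfrc at 11.73, 11.77 and 11.66 against 10.37 to 10.59 in the 6 vehicle animals. The increase was 1.24 ± 0.28 (limma adjusted p = 0.000153, with 4.95% of the probe sets called). Hamp was not called there and overlapped its vehicle group. On day 1 of piperonyl-butoxide, an inhibitor of cytochromes P450, Tfrc was 11.78, 11.79 and 11.26 against 10.35 to 10.73, an increase of 1.03 ± 0.30 (limma adjusted p = 0.0043, with 6.79% called). Both of these calls held when each array was left out.

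The other calls of Tfrc were closer to the threshold. On day 7 of thioacetamid the levels were 11.67, 11.31 and 11.24, an increase of 0.92 ± 0.28 (limma adjusted p = 0.0107, with 1.82% of the probe sets called) that was lost without animal 1 (0.79, adjusted p = 0.085). Hamp in these animals was 11.57, 13.38 and 12.22 and was not called. On day 7 of methapyrilene they were 11.46, 11.29 and 11.13, an increase of 0.81 ± 0.28 (limma adjusted p = 0.0334, with 2.62% called) that was lost without animal 1, 2 or 3 or vehicle animal 6, from 0.72 to 0.89, and in the fit with the replicate number as a block (0.70, adjusted p = 0.076). Both were compared with the same 6 vehicle animals as acetamide, so these 3 results are not independent. On day 7 of C.I Direct Black, Tfrc was 9.11, 9.92 and 10.12 against 10.97, 10.63 and 10.26 and fell by 0.90 ± 0.32 (limma adjusted p = 0.0368, with 3.99% called), a call that was lost without animal 1 or vehicle animal 1 or 2 (-1.10 to -0.60 over the leave-outs), on the other probe set (-0.80, adjusted p = 0.098) and when both groups were fitted alone (adjusted p = 0.068). There Hamp was 12.91, 14.57 and 14.11 against 13.08 to 13.24 and was not called. Of the 43 other iron genes, 4 were called higher and 1 lower, where 2.38% and 1.61% of the probe sets were. Id1 rose by 1.65, whereas Id3 differed by 0.12 and was not called.

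The signals of the red cell and cell cycle lists moved with several of these groups. The red cell list had 3 of 5 genes called lower with acetamide (8.35 to 9.68 against 9.90 to 10.41), with thioacetamid (9.21 to 9.35) and with C.I Direct Black (7.80 to 7.92 against 9.77 to 10.24). Of all probe sets, 1.42%, 0.845% and 1.61% were called lower there. These 3 genes were Hbb, Hba-a3 and Alas2, while the red cell genes Ahsp and Slc4a1 were called in 0 of the 98 groups. The cell cycle list, whose genes are expressed in dividing cells, had 12 of 12 genes called higher on day 1 of piperonyl-butoxide, 8 with acetamide and 0 with thioacetamid. Of all probe sets, 4.48%, 3.52% and 0.977% were called higher in these groups. The part of either signal in the change of Tfrc was not tested.

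Fth1, the heavy chain of ferritin, was never changed by 1.5-fold. Its differences ran from -0.13 to 0.38, and 78 of the 98 were above 0. In 10 groups the adjusted p was below 0.05, in each of which Fth1 was higher. Without a minimum fold, 7.08% of the probe sets passed over all comparisons. The unadjusted p of Fth1 was below 0.05 in 25 groups. The largest difference was at 48 hours of acetaminophen, with levels of 13.93, 14.17 and 14.00 against 13.61, 13.65 and 13.69, or 0.38 ± 0.05 (1.31-fold, limma adjusted p = 2.59e-11). At 24 hours the levels were 14.02, 14.01 and 13.95 against 13.70, 13.71 and 13.74, a difference of 0.27. The next of the 10 were thioacetamid on day 7 at 0.22, dehydroepiandrosterone on days 14 and 3 at 0.19 and 0.18, and piperonyl-butoxide on day 3 at 0.18.

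The Srprb/Tf probe set was the most even of the members, with differences from -0.21 to 0.11 and none of 1.5-fold. It had a mean level of 14.78, above 99.98% of the probe sets, and changes of such bright probe sets may be understated. Its adjusted p was below 0.05 in 14 groups, 10 lower and 4 higher, and its unadjusted p in 23. The lowest were Wy-14643 on day 3, with 14.65, 14.46 and 14.53 against 14.69 to 14.82 (-0.21 ± 0.03, limma adjusted p = 1.31e-10), dehydroepiandrosterone on day 7 at -0.17 and ethionine on day 3 at -0.16. The highest of those past the threshold was methapyrilene on day 7, with 14.89, 14.89 and 14.87 against 14.73 to 14.82, a difference of 0.11.

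Within groups, Hamp and Tfrc varied in opposite directions between animals. After the group mean was subtracted from each array, r was -0.30 over the 128 vehicle arrays (permutation within groups, two-sided, p = 0.0121, adjusted over 12 relations p = 0.0485) and rho was -0.35 (p = 0.00082, adjusted p = 0.0098). Over the 293 treated arrays r was -0.34 (p = 0.0038, adjusted p = 0.023) and rho was -0.21 (adjusted p = 0.0175). Without the 2 arrays farthest in Hamp, r was -0.28 in vehicle and -0.23 in treated animals. The 2 treated arrays were animal 1 of Wy-14643 on day 3 and animal 3 of ibuprofen on day 14. Group means were not computed again without them. Ibuprofen animals 1 and 2 therefore stayed in, with deviations from a mean that included animal 3, so this value does not remove the weight of that group. With quantile normalization the adjusted p over vehicle arrays was 0.070. The arrays of a group share the batch of their series, and the permutation kept each array in its group. Hamp lay more than 0.5 below its group mean on 14 vehicle arrays, 9 of which had Tfrc above its group mean, and on 28 treated arrays, 16 of which did. The share of all arrays with Tfrc above its group mean was not computed, so these counts do not test the relation.

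**Figure D5:**
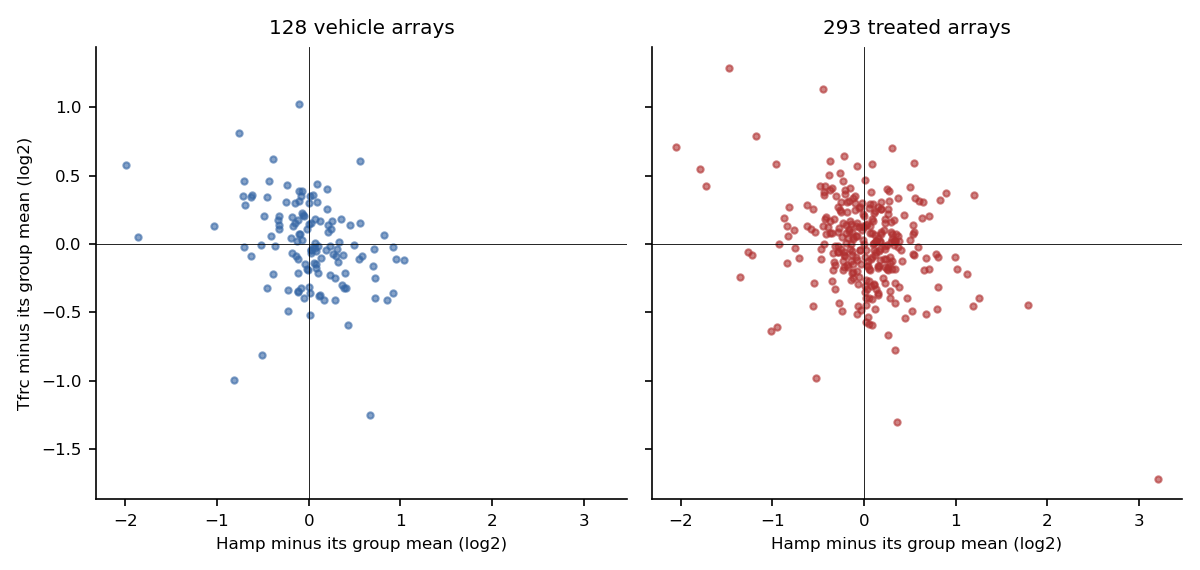
Deviation of each array from the mean of its group in Hamp (horizontal, log2) and in Tfrc (vertical, log2), for the 128 vehicle and 293 treated arrays in separate panels, 1 point per animal. The correlation is -0.30 in vehicle and -0.34 in treated animals, with much scatter around it.

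The other pairs gave weaker relations. Hamp and the Srprb/Tf probe set had r = -0.24 over treated arrays (permutation within groups, adjusted p = 0.023, and -0.15 with 0.091 after quantile normalization) and -0.09 over vehicle arrays (adjusted p = 0.47), and Hamp and Fth1 had -0.04 and 0.00. Among the 10410 other genes, ranked by the same within-group correlation as a description, Tfrc was the gene with the lowest value with Hamp in treated animals. Slc11a2, the divalent metal transporter, was also among the lowest there, at -0.29, and had the same value in vehicle animals. The highest in treated animals were Id3 at 0.41, Usf2 at 0.29, Ccnd1 at 0.29, Dgkd at 0.27 and Psma6 at 0.27. In vehicle animals the same genes had 0.39, 0.16, 0.34, 0.10 and 0.04, so most of these values did not recur. Usf2 is the neighbour of Hamp on chromosome 1 (chr1:95302109-95321334). In vehicle animals the highest were Slc38a2 at 0.46, Pptc7, Eif4b and Apoa5 at 0.40 and Id3 at 0.39. The lowest there were Tepsin at -0.41, Hspa1a at -0.40 and Tmem41a at -0.39. In treated animals Slc38a2, Pptc7, Eif4b and Apoa5 had 0.15, 0.04, 0.14 and 0.22. Tepsin, Hspa1a and Tmem41a had 0.05, -0.01 and -0.04 in treated animals. The 16 genes of the BMP route had values with Hamp from -0.12 (Hfe) to 0.34 (Smad7) over vehicle arrays. The highest of them, Smad7, Smad4, Smad1 and Id1, had 0.34, 0.34, 0.31 and 0.28 there and 0.16, 0.07, 0.06 and 0.22 over treated arrays, and the ligand Bmp6 had -0.07 and 0.01.

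For Tfrc, the genes most alike within vehicle groups were the clock gene Per2 at 0.48, Gclc at 0.43 and Btg1 at 0.43. Within treated groups they were Fkbp4 at 0.43, Per2 at 0.41 and Gypc at 0.41. Gclc and Btg1 had 0.18 and 0.11 in treated animals, and Fkbp4 and Gypc had 0.42 and 0.28 in vehicle animals. For the Srprb/Tf probe set they were Cyp3a2, Cat and Selenop at 0.59, 0.58 and 0.57 in vehicle animals, with 0.16, 0.38 and 0.43 in treated animals. In treated animals they were the plasma proteins Alb, Hpx and Serpina1 at 0.46, 0.44 and 0.44, with 0.56, 0.37 and 0.49 in vehicle animals. For Fth1 they were Med28, Ubl5 and Selenof at 0.53, 0.49 and 0.48 in vehicle animals, with 0.31, 0.26 and 0.37 in treated animals. In treated animals they were Sppl2a, Acbd5 and Lamp2 at 0.47, 0.45 and 0.44, with 0.32, 0.25 and 0.35 in vehicle animals.

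Around the members, 43 of the 57 genes of a list of iron handling were measured. At the last time point of each of the 30 compounds, 33 of 1290 gene and compound pairs were called higher (2.56%) and 13 lower (1.01%), against 1.15% and 0.857% of all probe sets, and 15 compounds had at least 1 call. Over all 98 groups, the genes called most were Hmox1, in 13 groups higher and 1 lower, Gdf15, a stress-induced cytokine, in 13 and 0, the iron regulatory protein gene Ireb2 in 8 and 5, Id1 in 11 and 0, the exporter Slc40a1 in 9 and 1, and Aco1 in 9 and 0. Steap3, the endosomal ferrireductase, was called in 0 groups higher and 9 lower, Slc39a8 in 0 and 8, and Cp in 0 and 5. Bmp6, the BMP ligand that responds to iron, was called in no group, as were Hp, Hpx, Socs3, Slc11a2 and Slc39a14. Over all probe sets and the 98 groups, 1.02% of comparisons were called higher and 0.731% lower, so few calls are usual for a gene. Hp and Hpx had mean levels of 14.65 and 13.83, and changes of such bright probe sets may be understated.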

How the data were processed

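Livers of rats were measured on Affymetrix RAE230A arrays, 1 animal per array. The authors converted the scans with MAS 5.0 and deposited log2 values made with RMA in the affy package (background correction, normalization between arrays, summary per probe set; its version was not found in the labels or methods). The table holds 15866 probe sets on 421 arrays, with array medians of 7.38 to 7.49. Arrays have no read depth, so their number per group, mostly 3, limits the precision. Changes of very bright probe sets may be understated, since signals of an array saturate.

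The labels gave the groups, doses and times and named the vehicle group to compare with. Differences were computed with limma 3.58.1 in R 4.3.3 with 1 mean per group over all arrays (285 residual and 4.67 prior degrees of freedom). The SE thus rests on the variance over all groups and understates the spread where treated animals differ widely. A probe set was called at an adjusted p below 0.05 over all probe sets and 1.5-fold. On simulated data of the ibuprofen day 14 comparison, 100 of 100 probe sets changed by 2-fold and 100 of 100 by 4-fold were recovered, and 0 unchanged ones were called. These counts are not specific to Hamp, whose SD within vehicle groups, 0.553, was larger than that of 99.6% of the probe sets. Among the ibuprofen animals of day 14 the SD of Hamp was 2.78. Recovery of a 2-fold change at the spread of Hamp was not tested. Correlations used deviations from group means and 100000 permutations within groups. Figures were drawn with matplotlib 3.10.9.

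Replicate numbers did not pair animals: same-numbered deviations correlated with a mean r of 0.0131 over 98 comparisons. Gene names came from the platform annotation updated to current rat symbols, and coordinates and promoters from RefSeq on GRCr8, which held a promoter for 3 of the 4 members. The 4 members, the gene lists and the tests were chosen with earlier results of these data known. Named groups were up to 6 with the highest and 6 with the lowest calls of a member, and likeness to a member was read from the highest and lowest correlations. Alternatives were other normalization, filters, moderation, control arrays, fits of single comparisons, a replicate block, other probe sets and arrays left out.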

Additional observations from a re-analysis of the deposited data

Results flagged for a closer look

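The change of Fth1 with acetaminophen differed between times. Its difference from vehicle was -0.03 at 6 hours and 0.38 at 48 hours, and the test of the difference between them gave 0.41 ± 0.07 (SE, limma adjusted p = 8.16e-07 over all probe sets). The size is below 1.5-fold, so it was not called under the rule used for the other results. The 6 hour group holds 1 of the 7 arrays with muscle or pancreas transcripts, without which the difference of its means at 6 hours was -0.0018.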

How the results depend on the processing

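Counts of groups called moved most with the control arrays and the samples in the fit. Hamp was called higher in 8 groups when each comparison was fitted alone and in 7 against pooled vehicle arrays of the same vehicle and time, and without 1 replicate number it was higher in 3 to 6 and lower in 1 to 3 groups. Tfrc was called higher in 12 groups against pooled vehicles, in 10 on its other probe set and in 3 to 6 without a replicate number. It was called lower in 1 group on the other probe set and in 0 to 2 without a replicate number. Without a minimum fold, Fth1 was called higher in 10 groups and the Srprb/Tf probe set higher in 4 and lower in 10. In the contrast of last against first time point, Tfrc was called for 1 compound with a filter at a mean of 6, with quantile normalization and with the replicate block, and for 0 to 1 without a replicate number, and Hamp for 0 to 2. The replicate block left the counts of Hamp at 4 and 3 and of Tfrc at 6 and 2, and the replicate numbers did not pair the animals. The F over vehicle groups was 1.09 to 1.71 for Hamp, 1.60 to 2.10 for Tfrc and 1.35 to 2.23 for Fth1 without a replicate number, and quantile normalization gave 2.10 for the Srprb/Tf probe set and, over the saline times, 4.81 for Fth1 (adjusted p = 0.0435). Under quantile normalization Hamp and Tfrc had r = -0.30 in vehicle animals (adjusted p = 0.070), and Hamp and the Srprb/Tf probe set -0.15 in treated animals. Iron genes were called higher 30 to 36 and lower 10 to 15 times. No called result turned direction. Some results that did not pass changed sign under quantile normalization. In vehicle animals, r of Hamp with the Srprb/Tf probe set went from -0.09 to 0.04. For the Srprb/Tf probe set with Fth1 it went from 0.23 to -0.10. The difference of the Srprb/Tf probe set between corn oil and carboxymethylcellulose went from 0.0024 to -0.0105. The causes of these differences were not tested, apart from fewer arrays where a replicate was left out. Among other calls, removing every replicate 1 array lost those of Hamp at 24 and 48 hours of acetaminophen, and removing every replicate 2 array those of Hamp with ethionine on day 1 and ibuprofen on day 14 (adjusted p = 0.053) and of Tfrc with piperonyl-butoxide.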
